A study of Rattus norvegicus with 24 samples.

Results

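The thick ascending limb of the loop of Henle was followed here through 6 genes named for its function: Umod, Egf, Kcnj1, Bsnd, Casr and Ptger3. Every probe set that the array annotation assigns to one of these symbols was taken, whatever its signal. This gave 6 of 15923 probe sets, for 5 of the 6 genes. Umod, Egf, Kcnj1 and Casr have 1 probe set each and Ptger3 has 2, while Bsnd carries no probe set under its symbol and was not analysed here. All 6 probe sets passed the filter on weak signals that left 10208 probe sets for testing.

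The kidneys came from male SHR-SP rats, a stroke-prone strain with inherited hypertension. From 11 weeks of age the animals ate either powdered chow with plain water, or chow with 24.5% fat together with 1% NaCl in the water. Kidneys were taken after 2 or 8 weeks, which gave 4 groups of 6 animals with 1 array each. The groups are called here the normal diet and the salt-fat diet at each time. All animals were of the hypertensive strain and no normotensive group was analysed, and salt and fat were given together, so their separate contributions cannot be told apart. Whole kidneys were extracted, so that fewer cells of a type and less RNA per cell cannot be told apart in any of the values below.

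The thick ascending limb reabsorbs salt without water. The cotransporter NKCC2, encoded by Slc12a1, brings sodium, potassium and chloride into the cell from the tubule fluid. The potassium channel ROMK, encoded by Kcnj1, lets potassium return to the fluid, which keeps the cotransporter supplied and makes the lumen positive. Chloride leaves on the blood side through channels that need barttin, the product of Bsnd, and the lumen-positive voltage drives calcium and magnesium between the cells through claudins. The calcium-sensing receptor (Casr) and the prostaglandin E2 receptor EP3 (Ptger3) restrain this transport. Uromodulin (Umod) is the most abundant protein of normal urine and is made almost only in this segment, and the precursor of epidermal growth factor (Egf) is made there and in the early distal tubule.

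Signals are given as the linear MAS5 values of the array, and differences (± SE) on the scale of log2(signal + 7.2), on which changes of weak signals come out too small. A difference was called when its adjusted p, from limma with Benjamini-Hochberg adjustment over all 10208 probe sets tested, was under 0.05. Array medians lay between 68.7 and 78.7, and arrays of the same group correlated at 0.958 to 0.981. The 1st percentile of signal reached 3.0 among the normal-diet arrays at 8 weeks, against at most 1.1 in the other groups, and arrays 1 and 2 of that group had been found to stand apart at the low end in earlier work. Values without both are given with Kcnj1, Ptger3, Slc12a1 and Kcnj15. At 2 weeks the GAPDH 3' to 5' signal ratio was 0.969 to 1.18 on the normal diet and 1.13 to 1.40 on the salt-fat diet, and the mean log2 signal of the spike-in controls was 9.08 to 9.23 against 8.57 to 9.07. The summed signal of 3 adipocyte markers was 258 to 3783 on the normal diet and 86.9 to 254 on the salt-fat diet at that time. At 8 weeks 3 of 6 macrophage markers rose, beside 5.63% of all probe sets called higher. The summed signal of the 6 markers was 2194 to 2771 on the normal diet and 2730 to 3685 on the salt-fat diet. The part of these measures in the results was not tested.

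Of 8 other markers of the thick ascending limb, 6 were measured above the filter, and their summed signal was 1980 to 2386 on the normal diet and 2773 to 3431 on the salt-fat diet at 2 weeks. At 8 weeks the sums were 1774 to 2487 and 2204 to 2770. The other markers were thus higher on the salt-fat diet at 2 weeks with no overlap of the groups, and overlapped at 8 weeks. By limma, 6 of 6 rose at 2 weeks and 3 of 6 at 8 weeks, beside 4.55% and 5.63% of all probe sets called higher. Slc12a1, Cldn10, Cldn16 and Cldn19 are among them and are described with the other genes of the segment.

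The products that the limb secretes, uromodulin and the epidermal growth factor precursor, showed no called difference with diet. Umod had signals of 5168 to 6057 (median 5856) on the normal diet at 2 weeks and 4907 to 6782 (median 5664) on the salt-fat diet. At 8 weeks the range was 4737 to 6161 (median 5182) on the normal diet and 5033 to 6688 (median 5709) on the salt-fat diet. All 4 ranges overlapped, and both the lowest and the highest array at 2 weeks belonged to the salt-fat diet. The mean signal was 5773 ± 312 (SD, n = 6) against 5703 ± 678 (SD, n = 6) at 2 weeks, and 5345 ± 555 (SD, n = 6) against 5760 ± 551 (SD, n = 6) at 8 weeks. The diet difference of Umod was -0.02 ± 0.08 at 2 weeks (95% interval -0.18 to 0.14, adjusted p = 0.890) and 0.11 ± 0.08 at 8 weeks (95% interval -0.05 to 0.27, adjusted p = 0.425). Under quantile normalization, which forces all arrays to the same distribution, the 2-week difference turned to 0.21 with an adjusted p of 0.0298, so the direction of Umod at 2 weeks depended on the scaling.

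Egf was among the steadier transcripts, with a within-group SD of 0.123 on the log2 scale, and 11.8% of the probe sets tested had a smaller one. Its signals were 1353 to 1761 (median 1588) on the normal diet and 1366 to 1764 (median 1667) on the salt-fat diet at 2 weeks. At 8 weeks they were 1202 to 1526 (median 1392) and 1314 to 1537 (median 1358). The diets overlapped almost completely at either time. The diet difference was 0.06 ± 0.07 at 2 weeks (95% interval -0.09 to 0.21, adjusted p = 0.653) and 0.02 ± 0.07 at 8 weeks (95% interval -0.13 to 0.17, adjusted p = 0.912). As folds these intervals run from 0.942 to 1.16 at 2 weeks and from 0.914 to 1.12 at 8 weeks.

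Kcnj1, the secretory potassium channel, had higher mean signals on the salt-fat diet at each time, without a call at either. At 2 weeks the normal-diet signals ran from 293.8 to 384.3 (median 326) and those on the salt-fat diet from 287.9 to 650.8 (median 423). At 8 weeks the signals were 234.3 to 405.6 (median 291) and 334.4 to 490.9 (median 397). The highest single value, 650.8, was array 5 of the salt-fat diet at 2 weeks, and array 2 of the same group held the lowest signal of its time. The mean was 328 ± 31.7 (SD, n = 6) against 439 ± 125 (SD, n = 6) at 2 weeks and 305 ± 57.8 (SD, n = 6) against 406 ± 56.6 (SD, n = 6) at 8 weeks. In the salt-fat group 5 of 6 arrays lay above the normal-diet median at 2 weeks and 6 of 6 at 8 weeks, and the ranges overlapped at both. The difference was 0.37 ± 0.14 at 2 weeks (95% interval 0.09 to 0.66, adjusted p = 0.0897) and 0.41 ± 0.14 at 8 weeks (95% interval 0.13 to 0.69, adjusted p = 0.0567).

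The Kcnj1 differences lay close to the threshold and moved both ways when single arrays were left out. At 2 weeks the difference became 0.48 (adjusted p = 0.0219) without array 2 of the salt-fat diet, and 0.25 (adjusted p = 0.250) without array 5, the highest of its group. At 8 weeks it became 0.50 (adjusted p = 0.0217) without normal-diet array 3 and 0.47 (adjusted p = 0.0449) without array 3 of the salt-fat diet. It stayed at 0.41 but passed (adjusted p = 0.0308 and 0.0273) when arrays 2 or 5 of the 2-week salt-fat group were left out. Without normal-diet array 1 at 8 weeks it was 0.34 (adjusted p = 0.148), and without normal-diet arrays 1 and 2 it was 0.32 (adjusted p = 0.240).

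**Figure D1:**
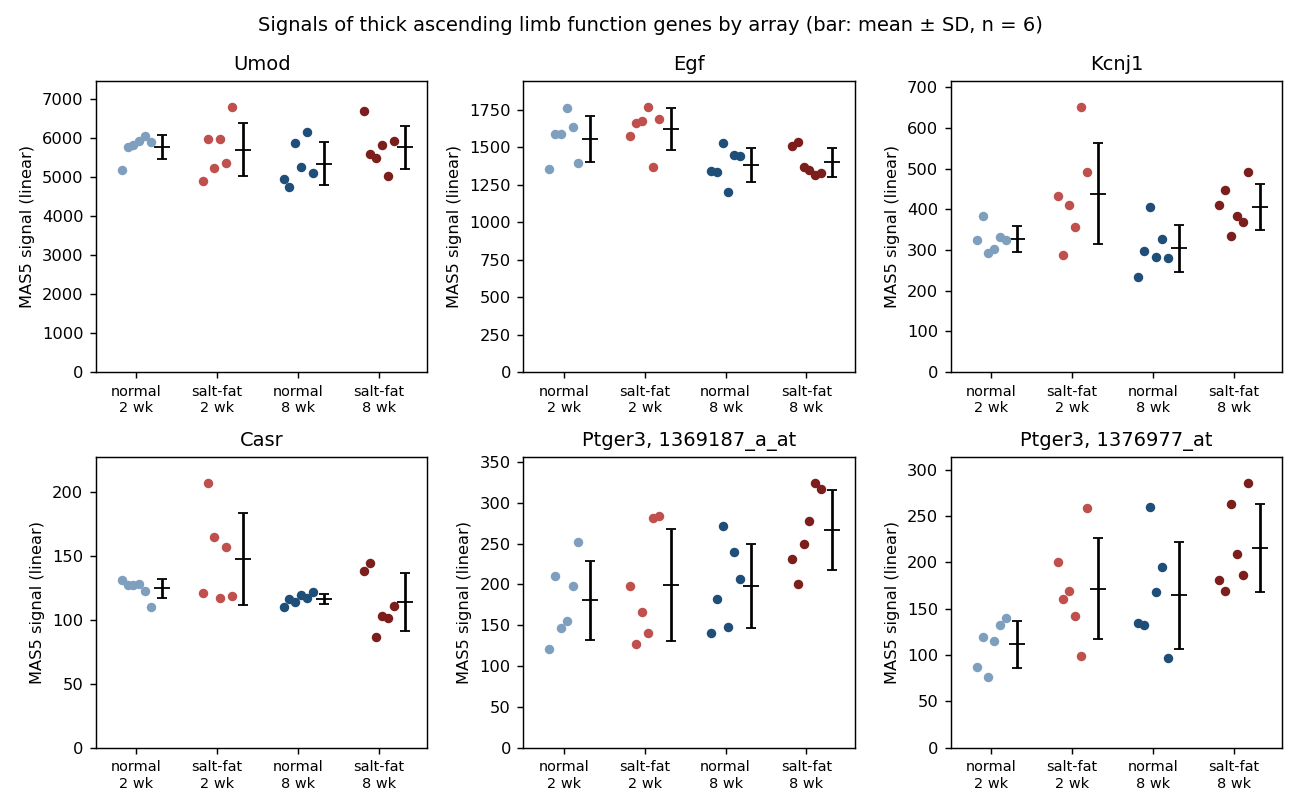
Linear MAS5 signal of the 6 probe sets on each of the 24 arrays, by diet and time, with 1 point per animal and the group mean ± SD (n = 6) beside the points. Umod, Egf and Casr overlap between diets, while for Kcnj1 and the Ptger3 probe sets all 6 arrays of the salt-fat diet at 8 weeks lie above the normal-diet median.

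Of the receptors that restrain transport, Casr, the sensor of extracellular calcium on the blood side of the limb, had overlapping signals on both diets. Its signals were 110.3 to 131.6 (median 128) on the normal diet and 117.0 to 207.0 (median 139) on the salt-fat diet at 2 weeks. At 8 weeks they were 110.0 to 121.5 (median 117) and 86.6 to 144.3 (median 107). The normal-diet arrays lay close together, and the arrays of the salt-fat diet reached both further up and, at 8 weeks, further down. The SD was 7.55 against 35.8 at 2 weeks and 4.10 against 22.5 at 8 weeks (n = 6 in each group), which is given as a description without a test. The diet difference was 0.20 ± 0.12 at 2 weeks (95% interval -0.04 to 0.45, adjusted p = 0.319) and -0.05 ± 0.12 at 8 weeks (95% interval -0.29 to 0.20, adjusted p = 0.858).

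Ptger3, whose receptor EP3 lowers cyclic AMP and opposes vasopressin, is read by 2 probe sets that did not give the same picture at 2 weeks. Probe set 1369187_a_at had signals of 121.4 to 252.4 (median 177) on the normal diet and 127.5 to 283.9 (median 182) on the salt-fat diet at 2 weeks. Its signals at 8 weeks were 141.0 to 271.1 (median 194) and 200.3 to 323.9 (median 264). The groups lay on top of each other at 2 weeks, and at 8 weeks 6 of 6 arrays of the salt-fat diet were above the normal-diet median. Its diet difference was 0.11 ± 0.19 at 2 weeks (95% interval -0.28 to 0.51, adjusted p = 0.774) and 0.44 ± 0.19 at 8 weeks (95% interval 0.04 to 0.83, adjusted p = 0.162).

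Probe set 1376977_at of Ptger3 had signals of 76.1 to 140.4 (median 117) on the normal diet and 98.7 to 258.7 (median 165) on the salt-fat diet at 2 weeks. Its signals at 8 weeks were 96.8 to 259.9 (median 151) and 169.3 to 285.4 (median 198). At 2 weeks 5 of 6 arrays of the salt-fat diet, and at 8 weeks 6 of 6, lay above the normal-diet median. Its diet difference was 0.56 ± 0.20 at 2 weeks (95% interval 0.15 to 0.97, adjusted p = 0.0820) and 0.42 ± 0.20 at 8 weeks (95% interval 0.00 to 0.83, adjusted p = 0.207). Without array 5 of the 2-week salt-fat group, the only array of its group below the normal-diet median, the 2-week difference was 0.70 (adjusted p = 0.0290). Without array 6, the highest of its group, it was 0.44, and over all fits with 1 array left out the adjusted p reached 0.190. Without normal-diet arrays 1 and 2 at 8 weeks, the 8-week differences of both Ptger3 probe sets were 0.31 (adjusted p = 0.463 for 1369187_a_at and 0.510 for 1376977_at).

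The Ptger3 probe sets varied more between animals of a group than most transcripts, with within-group SDs of 0.376 and 0.394 on the log2 scale, above those of 92.6% and 93.7% of the probe sets tested. Over the 24 arrays their log2 signals correlated at r = 0.57, and at 0.42 once group means were removed. These are descriptions over arrays that share scaling and tissue. Array 5 of the salt-fat diet at 2 weeks shows the disagreement best, with 280.7 on 1369187_a_at, near the top of its group, and 98.7 on 1376977_at, the bottom of its group.

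**Figure D2:**
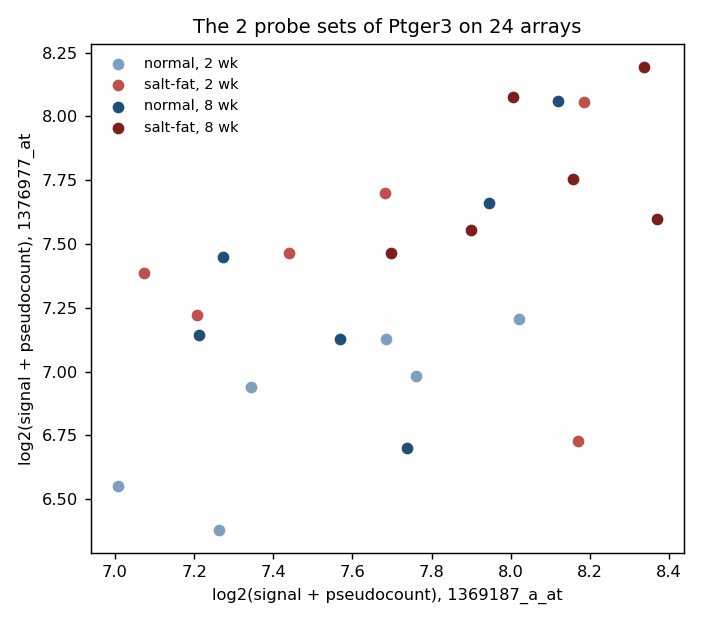
Log2(signal + 7.2) of both Ptger3 probe sets against each other, with 1 point for each of the 24 arrays, coloured by diet and time. The points spread along a loose diagonal (r = 0.57), with a point at the lower right for array 5 of the salt-fat diet at 2 weeks.

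Counted together, 0 of 6 member probe sets were called for diet at 2 weeks, where limma called 8.74% of all probe sets tested, and 2 of 6 had an unadjusted p under 0.05. At 8 weeks 0 of 6 were called against a background of 9.14%, and 3 of 6 had an unadjusted p under 0.05. These 3 were Kcnj1 and both probe sets of Ptger3. Of all 10208 probe sets tested, 2328 had an unadjusted p under 0.05 at 2 weeks and 2416 at 8 weeks. The median difference of the members was 0.16 at 2 weeks and 0.26 at 8 weeks, beside medians of 0.02 and -0.00 over all probe sets tested. The diet differences at 8 and at 2 weeks were not told apart by limma for any member (0 of 6 called, 0 of 6 with an unadjusted p under 0.05, adjusted p from 0.600 to 0.963), where 0.382% of all probe sets were called. In simulated data with differences of 0.5 on the log2 scale, the test recovered 68% at 2 weeks, 70% at 8 weeks and 31% for the difference between times. In each comparison 100 of 10208 simulated probe sets were changed by 0.5 and 100 by 1. The shares called in the data differ from this, and recovery at an adjusted p depends on how many probe sets change. The recovered shares are over randomly drawn probe sets and do not hold for a given member, because the spread of the members differs. Of the probe sets tested, 11.8% had a smaller within-group SD than Egf and 93.7% a smaller one than Ptger3 probe set 1376977_at.

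The diet effect was also averaged over 2 and 8 weeks, a comparison added after the values had been seen. In it 2 of 6 member probe sets were called, both higher on the salt-fat diet, where limma called 17.6% of all probe sets tested and 10% higher. Kcnj1 was higher by 0.39 ± 0.10 (95% interval 0.19 to 0.59, adjusted p = 0.00563), a fold of 1.31 with an interval of 1.14 to 1.51. Ptger3 probe set 1376977_at was higher by 0.49 ± 0.14 (95% interval 0.20 to 0.78, adjusted p = 0.0177), a fold of 1.40. The other Ptger3 probe set, 1369187_a_at, had 0.27 ± 0.14 (adjusted p = 0.164), so the gene was called through 1 of its 2 probe sets. Umod and Egf both had 0.04 (adjusted p at most 0.639) and Casr had 0.08 (adjusted p = 0.564). Under quantile normalization Umod passed with 0.14 (adjusted p = 0.0258). The Kcnj1 call held in 24 of 24 fits that left out 1 array and under 10 of 10 other settings. That of 1376977_at held in 24 of 24 and 9 of 10, and was lost without normal-diet arrays 1 and 2 at 8 weeks (0.43, adjusted p = 0.0568).

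**Figure D3:**
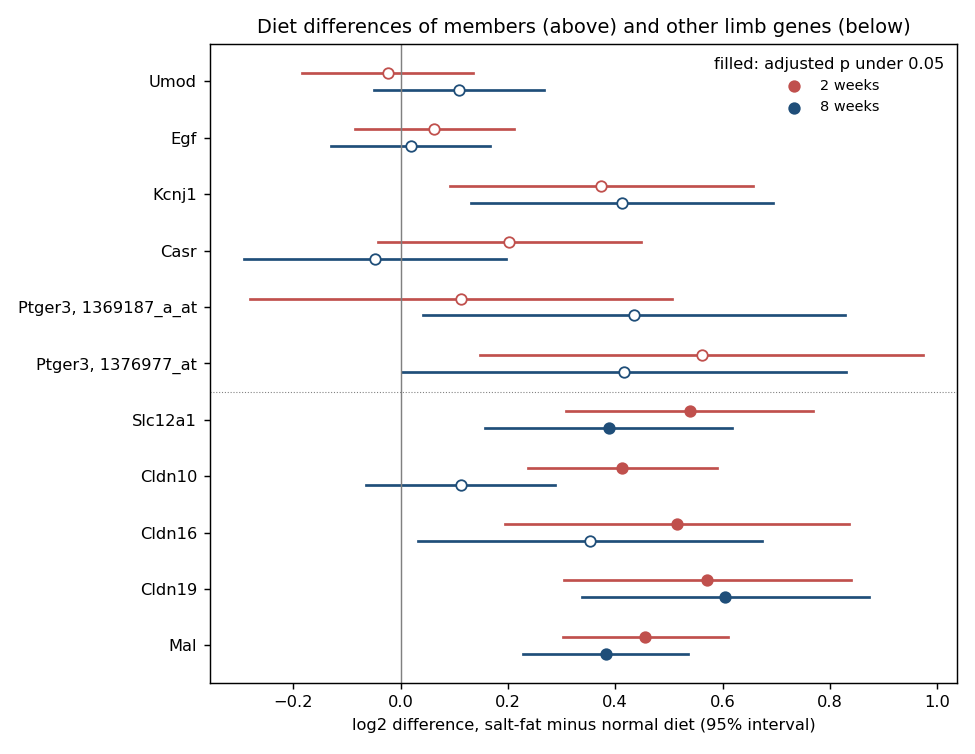
Diet difference (salt-fat minus normal diet) on the log2 scale with its 95% interval for the 6 member probe sets, above the dotted line, and for 5 other genes of the segment, below it, at 2 and 8 weeks. Filled points passed an adjusted p of 0.05. None of the members is filled, while Slc12a1, Cldn19 and Mal are filled at both times.

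With time on a diet, Egf, Casr and Kcnj1 had lower means at 8 than at 2 weeks on both diets, and Umod on the normal diet. All 6 Egf signals at 8 weeks lay below the 2-week median of the same diet, on the normal diet and on the salt-fat diet alike. The difference of Egf, 8 minus 2 weeks, was -0.17 ± 0.07 on the normal diet (adjusted p = 0.522) and -0.21 ± 0.07 on the salt-fat diet (adjusted p = 0.110). Casr had -0.09 ± 0.12 (adjusted p = 0.877) and -0.34 ± 0.12 (adjusted p = 0.114). Kcnj1 had -0.12 ± 0.14 (adjusted p = 0.863) and -0.08 ± 0.14 (adjusted p = 0.836). Umod had -0.12 ± 0.08 on the normal diet (adjusted p = 0.704) and 0.02 ± 0.08 on the salt-fat diet (adjusted p = 0.943). On the normal diet the Ptger3 difference was 0.13 ± 0.19 for 1369187_a_at (adjusted p = 0.892) and 0.49 ± 0.20 for 1376977_at (adjusted p = 0.491). On the salt-fat diet it was 0.45 ± 0.19 (adjusted p = 0.210) and 0.35 ± 0.20 (adjusted p = 0.403). By limma 0 of 6 members were called for time on either diet, beside 0.0392% of all probe sets on the normal diet and 3.53% on the salt-fat diet. An unadjusted p under 0.05 was found for 2 of 6 and 3 of 6, beside 869 and 1731 of all 10208 probe sets tested.

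Without array 5 of the 2-week salt-fat group, the time difference of Egf on that diet was -0.26 and passed (adjusted p = 0.0403), and without array 4 of that group it was -0.18 (adjusted p = 0.210). Without array 2 of the 8-week salt-fat group, that of Casr was -0.41 and passed (adjusted p = 0.0438), and without array 2 of the 2-week salt-fat group it was -0.24 (adjusted p = 0.292). Averaged over both diets, a comparison added after the values had been seen, the time difference of Egf was -0.19 ± 0.05 (95% interval -0.29 to -0.08, adjusted p = 0.0549), a fold of 0.878. Here 0 of 6 members were called beside 1.71% of all probe sets, and 4 of 6 had an unadjusted p under 0.05. These 4 were Egf, Casr and both probe sets of Ptger3. Of all 10208 probe sets tested, 1560 had an unadjusted p under 0.05 in this comparison. Egf passed in 5 of 24 fits that left out 1 array, with values of -0.21 to -0.20. These left out normal-diet arrays 1 and 6 or salt-fat array 5 at 2 weeks, and normal-diet array 3 or salt-fat array 2 at 8 weeks. Age and time on the diet are the same interval here and cannot be told apart.

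The cotransporter gene Slc12a1, whose product is the entry step that Kcnj1 supports, was already known from earlier results on these data to be higher on the salt-fat diet. Its signals were 328.9 to 481.2 on the normal diet and 533.0 to 680.9 on the salt-fat diet at 2 weeks, without overlap. At 8 weeks they were 268.2 to 470.6 and 403.2 to 544.9, with overlap. Slc12a1 rose by 0.54 ± 0.11 at 2 weeks (adjusted p = 0.00282) and by 0.39 ± 0.11 at 8 weeks (adjusted p = 0.0282). The 8-week call was lost, at 0.30 to 0.39, without normal-diet array 1 or 4 or without salt-fat array 1, 3 or 5 of that time, and at 0.39 (adjusted p = 0.0794) without normal-diet arrays 1 and 2 together.

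To show the members against this gene within each animal, the log2 ratio of each member's signal to that of Slc12a1 was taken on the same array. The measure was added after the values had been seen, and Slc12a1 was chosen knowing that it rose, so its rise is part of every ratio. The ratios are therefore given as a description without a test, and show unequal change of a pair of genes rather than a change of the member. The Umod to Slc12a1 ratio was 3.57 to 4.13 (median 3.76) on the normal diet and 2.93 to 3.55 (median 3.17) on the salt-fat diet at 2 weeks, without overlap. The Egf to Slc12a1 ratio was 1.71 to 2.09 (median 1.88) and 1.19 to 1.68 (median 1.42), also without overlap. The mean differences at 2 weeks were -0.56 ± 0.12 for Umod and -0.48 ± 0.10 for Egf, beside differences of -0.02 for Umod, 0.06 for Egf and 0.54 for Slc12a1 themselves. Under quantile normalization the ratio differences were -0.32 for Umod and -0.40 for Egf.

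At 8 weeks the ratio of Umod to Slc12a1 was 3.56 to 4.26 (median 3.85) on the normal diet and 3.37 to 3.83 (median 3.57) on the salt-fat diet, with overlap. The mean difference was -0.28 ± 0.13 for Umod and -0.37 ± 0.11 for Egf. The Kcnj1 to Slc12a1 ratio differed by -0.16 ± 0.21 at 2 weeks and 0.02 ± 0.14 at 8 weeks, with 3 of 6 arrays on either side of the normal-diet median at both times. The Ptger3 ratios differed by -0.43 ± 0.28 and 0.05 ± 0.15 for 1369187_a_at and by 0.02 ± 0.26 and 0.03 ± 0.21 for 1376977_at. The Casr ratio differed by -0.34 ± 0.12 at 2 weeks and -0.44 ± 0.18 at 8 weeks.

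**Figure D4:**
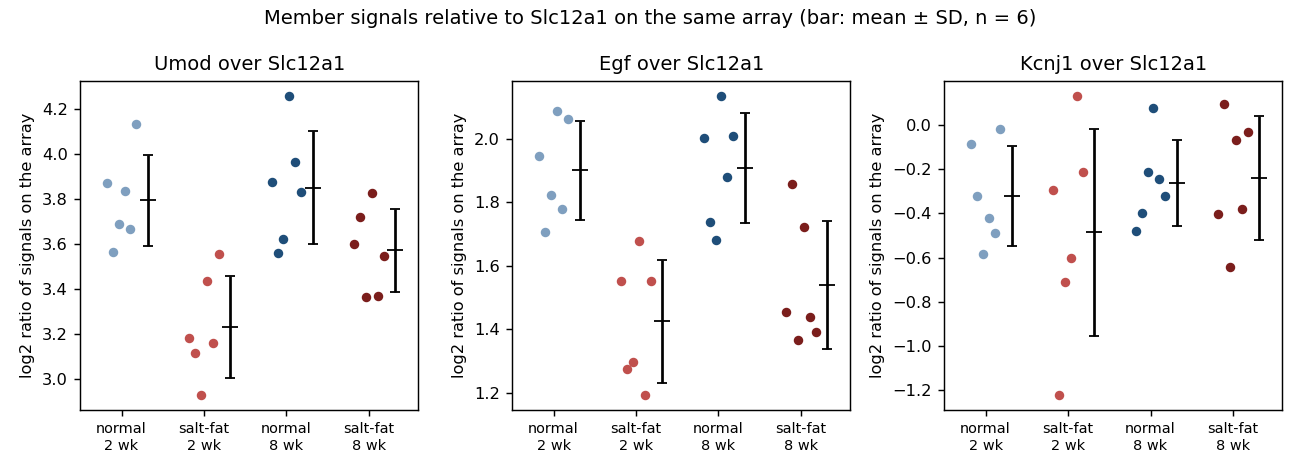
Log2 ratio of the Umod, Egf and Kcnj1 signals to the Slc12a1 signal of the same array, by diet and time, with 1 point per animal and the group mean ± SD (n = 6). The vertical axes do not start at 0. At 2 weeks the ratios of Umod and Egf on the salt-fat diet all lie below those on the normal diet, while those of Kcnj1 overlap.

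Around the members, 69 other genes of the segment and its signals had been listed, of which 54 were on the array and 40 were tested. At 2 weeks 11 of the 40 rose and 3 fell, beside 4.55% of all probe sets called higher and 4.19% called lower. At 8 weeks 5 rose and 4 fell, beside 5.63% and 3.51%. Their median difference was 0.09 at 2 weeks and 0.04 at 8 weeks, beside 0.02 and -0.00 over all probe sets tested.

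Salt transporters of the segment moved in both directions, with 2 of 9 tested rising and 2 falling at 2 weeks, and 2 rising and 3 falling at 8 weeks. Over all probe sets, 4.55% were called higher and 4.19% lower at 2 weeks, and 5.63% and 3.51% at 8 weeks. Besides Slc12a1, the sodium bicarbonate cotransporter Slc4a7 rose by 1.45 ± 0.20 at 2 weeks (adjusted p = 3.63e-05) and by 1.00 ± 0.20 at 8 weeks (adjusted p = 0.00178). Its signals at 2 weeks were 29.9 to 60.8 on the normal diet and 81.6 to 180.1 on the salt-fat diet. At 8 weeks they were 24.7 to 67.2 and 55.0 to 111.8. The filter level was 44.5 to 54.5 across arrays, and fewer than 6 normal-diet arrays of Slc4a7 exceeded it. Slc4a7 was thus tested only through its salt-fat arrays, where it was high. Among the genes of basolateral potassium channel subunits, Kcnj16 and Kcnj15 fell at 2 weeks. Kcnj10, a further subunit of the list, was tested and not called at 2 or 8 weeks. Kcnj16 had -0.36 ± 0.09 at 2 weeks (adjusted p = 0.00792) and -0.38 at 8 weeks (adjusted p = 0.00508). Kcnj15 had -0.43 ± 0.08 at 2 weeks (adjusted p = 0.000774) and -0.24 at 8 weeks (adjusted p = 0.0442). A further probe set of each was also called lower at 2 weeks, by -0.47 for Kcnj16 and -1.36 for Kcnj15. At 8 weeks the further probe set of Kcnj16 had -0.45 (adjusted p = 0.000427). That of Kcnj15 had -0.45 and was not called (adjusted p = 0.114). The 8-week call of Kcnj15 was lost without normal-diet arrays 1 and 2 together (-0.25, adjusted p = 0.107) and, at -0.26 to -0.20, in 14 of 24 fits that left out 1 array. These were any normal-diet array or salt-fat array 1, 2, 5 or 6 at 8 weeks, and normal-diet array 2 or 6 or salt-fat array 1 or 3 at 2 weeks. Slc9a3, the apical sodium proton exchanger, fell at 8 weeks (-0.50 ± 0.08, adjusted p = 0.000248) and had 0.18 ± 0.08 at 2 weeks (adjusted p = 0.192). These channels and the exchanger are also used by the proximal or distal tubule. Of 9 proximal tubule markers, 5 fell at 2 weeks and 4 at 8 weeks, beside the same 4.19% and 3.51% called lower. The summed proximal signal was 27274 to 29420 on the normal diet and 19975 to 25500 on the salt-fat diet at 2 weeks. Of 4 tested markers of the distal convoluted and connecting tubule, 1 fell at 2 weeks and 3 at 8 weeks, and 0 rose. Their summed signal was 3212.1 to 3770.6 on the normal diet and 2889.8 to 3829 on the salt-fat diet at 2 weeks. At 8 weeks it was 2859.6 to 3584.5 and 1973.8 to 3189.1. The part of either segment in the falls was not tested.

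The claudins, which form the path for calcium, magnesium and sodium between the cells, had 3 of 4 tested members rising at 2 weeks and 2 of 4 at 8 weeks, with none falling. Over all probe sets, 4.55% and 5.63% were called higher at these times. Cldn10 rose by 0.41 ± 0.09 at 2 weeks (adjusted p = 0.00274) and had 0.11 at 8 weeks (adjusted p = 0.462). Cldn19, the partner of Cldn16 in the divalent cation pore, rose by 0.57 ± 0.13 at 2 weeks (adjusted p = 0.00580) and by 0.61 ± 0.13 at 8 weeks (adjusted p = 0.00352). Cldn16 rose by 0.52 ± 0.16 at 2 weeks (adjusted p = 0.0377) and had 0.35 at 8 weeks (adjusted p = 0.164). The Cldn16 call was lost, at 0.40 to 0.52, without normal-diet array 1, 3 or 6 or salt-fat array 2, 3 or 5 of that time. Cldn3, which is not limited to this segment, rose at 8 weeks (1.75 ± 0.25, adjusted p = 4.38e-05) with signals of 13.0 to 57.9 against 71.2 to 140.1, and had 0.46 at 2 weeks (adjusted p = 0.281). Fewer than 6 normal-diet arrays of Cldn3 exceeded the filter level, so it too was tested only through its salt-fat arrays.

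Among the hormone receptors and genes of cyclic AMP signalling, 1 of 5 tested rose and 1 fell at 2 weeks. At 8 weeks 1 fell and 0 rose. Over all probe sets, 8.74% and 9.14% were called at these times. Of 7 tested kinases and regulators of the cotransporter, 1 rose at each time. The vasopressin receptor Avpr2, through which the limb and the collecting duct are stimulated, rose at 2 weeks on its stronger probe set (0.54 ± 0.13, adjusted p = 0.0101) and had 0.31 at 8 weeks (adjusted p = 0.136). Its other probe set had -0.33 (adjusted p = 0.312) and -0.21 (adjusted p = 0.556). The parathyroid hormone receptor Pth1r fell by 0.24 at 2 weeks (adjusted p = 0.0321) and by 0.23 at 8 weeks (adjusted p = 0.0405) on its stronger probe set. The other had -0.11 (adjusted p = 0.793) and -0.22 (adjusted p = 0.526). The 2-week call of Pth1r was lost, at -0.24 to -0.20, without normal-diet array 2, 3, 4 or 6 or salt-fat array 3, 5 or 6 of that time. Its 8-week call was lost, at -0.24 to -0.18, without normal-diet array 1, 4 or 5 or any of salt-fat arrays 1 to 5 of that time. Mal, a membrane protein known to bind NKCC2 and to take part in its sorting, rose by 0.46 ± 0.07 at 2 weeks (adjusted p = 0.000318) and by 0.38 at 8 weeks (adjusted p = 0.00151). The collecting duct shares several of these genes, and its markers moved as well: 5 of 8 rose and 1 fell at 2 weeks, with sums of 1560 to 2127 against 2910 to 3251. Avpr2 on its stronger probe set is 1 of these 8 markers and 1 of the 5, so this count is not separate from its rise above. At 8 weeks 4 of 8 rose, with sums of 1880 to 2495 against 2567 to 3490. Over all probe sets, 4.55% were called higher and 4.19% lower at 2 weeks, and 5.63% higher at 8 weeks. Kcnj1 and Ptger3 are made in the collecting duct too, and the part of that segment in their values was not tested.

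Around the secreted products 2 lists were made, uromodulin processing with segment transcription factors, and the epidermal growth factor receptors with their ligands. In each, 1 of 4 tested genes rose at 2 weeks, beside 4.55% of all probe sets called higher. At 8 weeks 0 of 4 were called in each, beside 9.14% of all probe sets. Hpn encodes hepsin, the protease that releases uromodulin from the membrane, and had 0.07 at 2 weeks (adjusted p = 0.656) and -0.08 at 8 weeks (adjusted p = 0.577). In the list of uromodulin processing and segment transcription factors, Esrrb rose at 2 weeks (0.34 ± 0.10, adjusted p = 0.0415) and had -0.18 at 8 weeks (adjusted p = 0.301). Its 2-week call was lost, at 0.29 to 0.36, without array 1, 2, 4 or 6 of either diet at 2 weeks. In the epidermal growth factor family, Areg, the ligand amphiregulin, rose at 2 weeks (0.39 ± 0.12, adjusted p = 0.0353) and had -0.31 ± 0.12 at 8 weeks (adjusted p = 0.101). From 2 to 8 weeks on the salt-fat diet Areg fell by 0.62 (adjusted p = 0.00257). The Areg call was lost, at 0.32 to 0.40, without normal-diet array 1, 4 or 6 or salt-fat array 2, 3 or 5 of that time. The receptor gene Egfr lay below the filter on weak signals, at 19.4 to 54.1 and 1.7 to 19.0 on its probe sets, and was not tested.

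In the pathway of prostaglandin E2, the ligand of EP3, 2 of 7 tested genes rose at 2 weeks, where limma called 4.55% of all probe sets higher. At 8 weeks 0 of 7 were called, beside 9.14% of all probe sets. Ptgs1, a cyclooxygenase that makes the precursor of prostaglandin E2, rose by 0.59 ± 0.16 at 2 weeks (adjusted p = 0.0167) and had 0.31 at 8 weeks (adjusted p = 0.229). Its signals were weak, at 27.2 to 57.4 (median 35.0) on the normal diet and 44.7 to 74.6 on the salt-fat diet at 2 weeks. That normal-diet median lay below the filter level of 44.5 to 54.5. Hpgd, which inactivates prostaglandins, rose by 0.40 ± 0.12 (adjusted p = 0.0410) at 2 weeks on its stronger probe set, with 0.19 at 8 weeks (adjusted p = 0.352), and had -0.06 and -0.02 on the other. Its 2-week call was lost, at 0.33 to 0.42, without any normal-diet array but 4 or without salt-fat array 2, 3 or 5 of that time. The inducible cyclooxygenase Ptgs2 lay at 0.7 to 27, below the filter, and was not tested. None of the 4 genes listed for the macula densa, the sensor cells at the end of the limb, was tested.

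Across the 24 arrays the members varied only partly together. Kcnj1 and Ptger3 probe set 1369187_a_at correlated at r = 0.61, and at 0.70 after group means were removed. Umod and Egf had r = 0.47, and 0.50 after group means were removed, whereas Egf and Kcnj1 had r = 0.11. The transcripts of known symbol most alike to Umod over the 24 arrays were Itm2b (r = 0.75), Slc3a1 (r = 0.73) and Atp1b1 (r = 0.71). Those most alike to Egf were Acox2 (r = 0.78), Mep1a (r = 0.78) and Arg2 (r = 0.73). Kcnj1 was most like C13h1orf116 (r = 0.83), Capn1 (r = 0.78) and Cryab (r = 0.78). Casr was most like Rcan2 (r = 0.81), Ift46 (r = 0.81) and Slc6a18 (r = 0.78), and Ptger3 on its stronger probe set was most like Ist1 (r = 0.76), Tpm4 (r = 0.75) and Pitpna (r = 0.74). These were the highest of all tested transcripts, and the arrays share diet, time and scaling, so the correlations describe the arrays and carry no test.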

How the data were processed

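Whole-kidney RNA of 24 rats was hybridised to 24 arrays, 1 per animal. The authors deposited linear intensity values, MAS5 signals per the submitters' processing notes, 1 per probe set and array. The deposited trimmed means of 150.03 to 150.04 on all arrays show scaling to a common level; the MAS5 version and detection calls are not given in the sources used here. The number of arrays limits the precision.

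Symbols came from the platform annotation, checked against RefSeq genes of GRCr8 (0 symbols changed, 35 lacking). Log2(signal + 7.2), the constant being 0.1 times the median array median, was fitted by group means to all 24 arrays with limma 3.58.1 in R 4.3.3 (eBayes with intensity trend, two-sided). Tested were probe sets whose signal exceeded percentile 40 of its array on at least 6 of 24 arrays; 57 control probe sets were left out. A gene was read by its tested probe set of highest mean log2 signal. Replicates are separate animals per the labels.

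The members and gene lists were chosen with earlier results of these data known. Named were all member probe sets, up to 4 called genes per list and diet comparison by smallest p, Slc12a1, Hpn, Egfr and Ptgs2 where measured, and for each member the 3 genes of highest r. A further gene of this rule is not reported here. The averaged contrasts and the ratios to Slc12a1 were chosen after seeing the data. On 10208 simulated probe sets, the test found 99% (2 weeks) and 93% (8 weeks) of differences of size 1 (log2). Alternatives were other pseudocounts, normalizations, filters and variance models, a replicate block, only the groups compared, and each array left out.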

Additional observations from a re-analysis of the deposited data

Results flagged for a closer look

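Among 92 groups of 6 arrays of the members and the named genes, 3 held an array that stood far from the other 5, where chance alone gives about 1 in 20. For Umod, normal-diet array 1 at 2 weeks had the lowest signal, 5168, while the other 5 lay between 5773.8 and 6056.6. For Cldn3, a tight junction claudin, normal-diet array 5 at 8 weeks had the highest signal, 57.9, with the others at 13.0 to 24.4. For Pth1r, the parathyroid hormone receptor, normal-diet array 6 at 2 weeks had the highest signal, 1198.4, with the others at 1075.6 to 1110.7. The diet effect on Slc9a3, the sodium proton exchanger, differed between times by -0.68 on the log2 scale (8 minus 2 weeks, limma adjusted p = 0.00871): its mean signal was 365 on the normal diet and 412 on the salt-fat diet at 2 weeks, and 372 and 261 at 8 weeks.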

How the results depend on the processing

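The number of members called moved from 0 to 1 at 2 weeks under quantile normalization (Umod) and to 2 with array weights (Kcnj1 and Ptger3 probe set 1376977_at), from 0 to 1 at 8 weeks under the stricter filter and with only the groups compared (Kcnj1 in both), and for averaged time from 0 to 1 (Egf) with median centring, the stricter filter or array weights. For averaged diet it moved from 2 to 1 without normal-diet arrays 1 and 2 at 8 weeks and to 3 under quantile normalization, which added Umod. Without those arrays the probe sets called at 8 weeks numbered 542, and those for time on the normal diet 9; the latter numbered 2 with median centring and 0 with no trend or only the groups compared. With array weights the counts were 80 for the interaction, 632 for time on the salt-fat diet and 357 for averaged time, and with only the groups compared 223 for time on the salt-fat diet. With 1 array left out, members called ranged from 0 to 1 for diet at 2 and at 8 weeks, for time on the salt-fat diet and for averaged time, and probe sets called from 598 to 986 (2 weeks), 543 to 1120 (8 weeks), 22 to 50 (interaction), 0 to 10 and 220 to 507 (time on the normal and on the salt-fat diet) and 123 to 273 (averaged time).

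Signs turned for small differences: under quantile normalization Umod was 0.21 (2 weeks), -0.15 (interaction), 0.010 and -0.14 (time on the normal and on the salt-fat diet), and averaged Hpn was 0.0029. With median centring Umod was -0.024 for time on the salt-fat diet. With array weights Egf at 8 weeks was -0.0093, the Kcnj1 interaction -0.048 and averaged Umod -0.0084, and without normal-diet arrays 1 and 2 Egf was -0.0018 and the Kcnj1 interaction -0.052. Relative to Slc12a1, Ptger3 probe set 1376977_at was -0.041 (2 weeks) and -0.0064 (8 weeks) with the pseudocount at 0.5 times the median and -0.0031 (2 weeks) under quantile normalization. Without normal-diet arrays 1 and 2, Kcnj1 was -0.063, 1369187_a_at -0.076 and 1376977_at -0.080. With 1 array left out the ranges that crossed 0 were -0.075 to 0.018 (Umod, 2 weeks), -0.12 to 0.023 (Casr, 8 weeks), -0.020 to 0.048 (Egf, 8 weeks), -0.072 to 0.16 (Kcnj1 interaction), -0.027 to 0.069 (Umod) and -0.19 to 0.044 (Kcnj1) for time on the salt-fat diet, and -0.036 to 0.016 (averaged Hpn). For the ratios to Slc12a1 they were -0.042 to 0.11 (Kcnj1, 8 weeks), -0.015 to 0.12 (1369187_a_at, 8 weeks), -0.12 to 0.16 and -0.095 to 0.13 (1376977_at, 2 and 8 weeks). The 2-week calls of Areg, Cldn16, Esrrb, Hpgd, Pth1r and Ptgs1 and the 8-week calls of Kcnj15, Pth1r and Slc12a1 were each lost under at least 1 other setting. The cause of these changes was not tested.

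No pairing by replicate number was seen in the signals. Deviations of same-numbered arrays correlated at a median of 0.015 (-0.147 to 0.162), and those of other pairs at -0.008 (-0.281 to 0.245). A pairing of animals that leaves no mark on the signals cannot be seen in this way. With the replicate number as a block, 0 members were called at 2 or 8 weeks and 2 for averaged diet, with 892 probe sets called at 2 weeks and 922 at 8 weeks. Depth of signal limits Egfr and Ptgs2, which lay below the filter.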
